A study of Mus musculus with 9 samples.

Results

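The genes described here are 6 matrix metalloproteinases (Mmp2, Mmp14, Mmp15, Mmp16, Mmp17 and Mmp24) and the 4 tissue inhibitors of metalloproteinases (Timp1, Timp2, Timp3 and Timp4). They were picked by symbol from the 27179 genes of a count table of the paraventricular nucleus of the hypothalamus (PVN), and all 10 were among the 17344 genes with enough counts to be tested. RNA from PVN tissue punches of 9 wild type male C57BL/6 mice (C57BL/6J in the study's methods) was sequenced in bulk, with 3 separate mice in each of 3 groups, and the age on the labels is 35 days, when the diets began. For 12 weeks the Control mice were fed chow in which fat supplied 16% of calories, and the HFD mice a diet in which it supplied 60%. HFD mice drank tap water. HFD+Mino mice ate the same high fat diet and also took minocycline, a tetracycline antibiotic that dampens inflammation and is known to inhibit metalloproteinases, at 40 mg/kg/day by mouth in the last 6 weeks. No group received minocycline on chow, so its effect could only be seen on top of the high fat diet.

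Matrix metalloproteinases are zinc enzymes that cut collagens, laminins, proteoglycans and cell surface proteins. Most are made as inactive proenzymes. Mmp14, Mmp15, Mmp16 and Mmp24 are anchored in the cell membrane by a transmembrane stretch, Mmp17 is held there by a lipid anchor, and Mmp2 is secreted. Each Timp protein blocks the active site of the enzymes, and Timp2 has a second role as the adaptor with which Mmp14 activates pro-Mmp2. In the brain these proteins take part in the turnover of the basement membrane around vessels, of the matrix around synapses and of myelin. Transcript counts say nothing about the activity of the enzymes, which was not measured in these libraries.

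Control replicate 1 was the deepest library with 42326213 counts, and HFD replicate 1 the shallowest with 17728590. The libraries differed widely in transcripts that mark cell types. The summed level of 6 genes that mark PVN neurons (Sim1, Otp, Avp, Oxt, Crh and Trh) was 27.8 CPM (counts per 1000000 counts of the scaled library) in Control replicate 1, between 932 and 3726 CPM in 6 other libraries, and 37726 and 31917 CPM in HFD+Mino replicates 1 and 2. Otp had 0 counts in Control replicate 1, and the summed level of 9 oligodendrocyte genes was 30414 CPM there against 2396 to 7085 CPM in the other libraries. HFD+Mino replicate 3 was closer to Control replicate 2 (Pearson r = 0.972 over log2 CPM) than to the libraries of its own group (0.917 and 0.937). Calls of the members that were lost without a library are given beside the results. For called genes outside the members such losses are not given, so whether those calls hold without a library is not shown. Fewer cells of a type cannot be told apart from less RNA per cell in such punches.

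Timp2 was the only member called in a comparison of 2 groups. Its transcript, the most abundant of the 10 per length, was 4.68-fold lower in HFD than in Control mice, and it stood 2.90-fold higher in HFD+Mino than in HFD mice, a difference that passed a looser threshold only. Timp3 and 4 of the membrane-anchored proteinases (Mmp14, Mmp15, Mmp16 and Mmp17) were lower in HFD+Mino than in HFD mice at that looser threshold, which all 5 missed once the trend of each library on exon length was removed. A gene was called when edgeR's quasi-likelihood test gave a false discovery rate (FDR, Benjamini-Hochberg over all 17344 genes) under 0.01 and the difference was at least 1.5-fold. By that rule 1 of the 10 members, Timp2, was called between HFD and Control, where 1.74% of all tested genes were called (1.42% lower in HFD). There 5 members had an unadjusted p under 0.05, against 20.5% of all genes. Between HFD+Mino and HFD 0 of the 10 were called, against 4.15% of all genes, while 7 had an unadjusted p under 0.05 (41.3% of all genes), DESeq2 called 6 (23.0% of all genes) and edgeR's likelihood ratio test called 2 (19.1%). In HFD+Mino against Control 0 of the 10 were called, as were 0% of all genes, with 1 at an unadjusted p under 0.05 (21.3% of all genes) and 0 called by DESeq2 (1.59%) or the likelihood ratio test (0.611%). At an FDR under 0.05 with the same fold, the members called were 1 between HFD and Control (5.77% of all genes), 6 between HFD+Mino and HFD (27.4% of all genes), of which 1 was higher (14.6%) and 5 lower (12.9%) in HFD+Mino, and 0 between HFD+Mino and Control (0% of all genes). HFD libraries enter both of the first 2 comparisons.

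The 6 looser calls between HFD+Mino and HFD were sensitive to single libraries and to exon length. All 6 were lost without HFD replicate 1 or without HFD replicate 3, and 5 were lost without HFD replicate 2, where Mmp16 kept its call. Calls over all genes fell in the same fits. At an FDR under 0.01 and 1.5-fold, 4.15% of all genes were called in this comparison with every library kept. Without HFD replicates 1, 2 and 3 the shares were 0.307%, 0.328% and 0.162%. Without Control replicate 2 or HFD+Mino replicate 2 the calls of Mmp16 and Timp2 were kept, and without HFD+Mino replicate 1 those of Mmp15 and Timp2. All 6 were kept without Control replicate 1, Control replicate 3 or HFD+Mino replicate 3. With the length trend removed Timp2 alone kept its call, and likewise in the 6 libraries that had like levels of PVN markers, a fit in which HFD+Mino is 1 library. The direction of each of the 6 was the same in all of these fits.

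**Figure D1:**
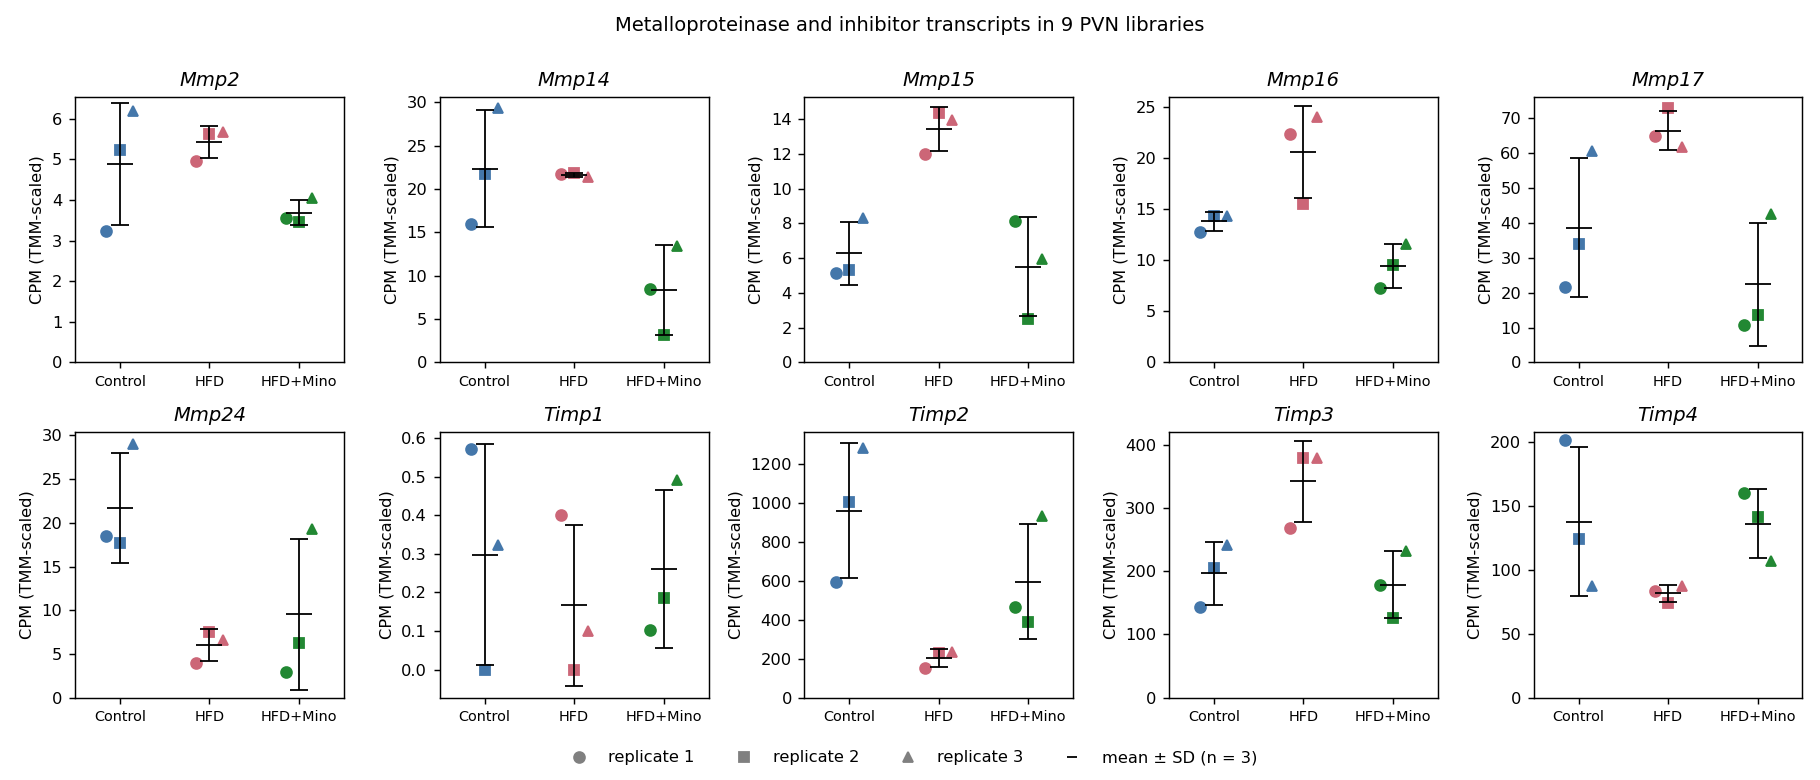
TMM-scaled CPM (vertical axes, linear) of each of the 10 genes in the 9 libraries, with a symbol for each replicate and the mean ± SD of the 3 mice of a group as a bar. The 3 HFD libraries lie below all others in Timp2 (151 to 235 CPM) and above all others in Mmp15 (12 to 14.4 CPM), while the Control and HFD+Mino libraries of Mmp17 are widely spread (10.9 to 60.6 CPM).

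The promoters of 7 of the 10 genes were in the RefSeq table of GRCm38.p6 used here (Mmp2, Mmp16 and Mmp17 were not). The 250 bases upstream of the start are shown for the 4 of these 7 genes that had an FDR under 0.05 between HFD+Mino and HFD. They are read 5′ to 3′ on the strand of the gene, and capitals mark each GC box, searched as GGGCGG on both strands. Timp2 lies on the minus strand (chr11:118355412-118355661), and Timp3 (chr10:86300162-86300411), Mmp14 (chr14:54431348-54431597) and Mmp15 (chr8:95352046-95352295) lie on the plus strand.
Timp2: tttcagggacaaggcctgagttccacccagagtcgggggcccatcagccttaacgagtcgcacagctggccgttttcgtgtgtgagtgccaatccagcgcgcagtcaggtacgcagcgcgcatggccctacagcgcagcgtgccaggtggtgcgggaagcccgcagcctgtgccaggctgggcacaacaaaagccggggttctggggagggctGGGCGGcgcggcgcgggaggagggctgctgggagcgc
Timp3: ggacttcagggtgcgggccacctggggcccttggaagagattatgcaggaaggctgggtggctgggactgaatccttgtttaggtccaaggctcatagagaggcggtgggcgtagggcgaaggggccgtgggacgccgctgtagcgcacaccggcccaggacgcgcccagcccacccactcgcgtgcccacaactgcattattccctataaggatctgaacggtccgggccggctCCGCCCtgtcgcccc
Mmp14: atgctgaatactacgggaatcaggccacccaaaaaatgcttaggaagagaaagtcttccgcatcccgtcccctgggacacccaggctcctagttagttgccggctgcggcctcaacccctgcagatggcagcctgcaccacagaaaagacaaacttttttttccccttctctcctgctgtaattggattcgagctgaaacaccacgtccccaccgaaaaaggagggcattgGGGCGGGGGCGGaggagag
Mmp15: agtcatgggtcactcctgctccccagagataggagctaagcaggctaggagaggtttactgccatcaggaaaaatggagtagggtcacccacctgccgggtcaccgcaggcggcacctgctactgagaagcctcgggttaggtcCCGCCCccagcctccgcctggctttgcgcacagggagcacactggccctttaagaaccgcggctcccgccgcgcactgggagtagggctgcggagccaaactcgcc
The GC box occurred in 32.7% of all 32851 promoters of the table and in 6 of the 7 members, with 2 matches in Mmp14 and 0 in Timp4. GC content was 68% in Timp2, 65.6% in Timp3, 63.6% in Mmp15 and 55.2% in Mmp14, against a median of 52.4% over all promoters. Timp2 held 21 CpG dinucleotides in this window and Timp3 18, against a median of 6. Neither the AP-1 motif TGANTCA, present in 6.75% of all promoters, nor the TATA box TATAAA, present in 12.4%, was found in any of the 7 windows on either strand. A match of letters is a description and not a measured binding site. Timp2, which was lower in HFD, shared the GC box and a GC content above the median with Timp3 and Mmp15, whose HFD libraries lay above all others.

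The genes lie apart in the genome (GRCm38). Timp2 spans chr11:118301061-118355411 and Timp4 chr6:115244444-115252205, both on the minus strand. On the plus strand are Timp1 (chrX:20870166-20874737), Timp3 (chr10:86300412-86349505), Mmp2 (chr8:92827290-92853421), Mmp14 (chr14:54431598-54442456), Mmp15 (chr8:95352296-95374293), Mmp16 (chr4:17853072-18117479), Mmp17 (chr5:129584151-129611099) and Mmp24 (chr2:155775342-155818367). Of the 4 inhibitors, 3 sit inside a synapsin gene of the opposite strand. Timp1 lies inside Syn1 with 0 shared exon bases, Timp3 inside Syn3 with 1733 shared bases and Timp4 inside Syn2 with 90. Mmp24 shares 637 exon bases with BC029722 on the opposite strand. Whether reads were counted by strand is not given in the sources used here, so reads in those shared bases cannot be told apart from those of the partner gene.

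Across genes, levels were compared per kilobase of exon (CPM per kb), because the members' exons add up to between 888 and 8667 bases. Timp2 had the highest level in each group, with a mean of 246 ± 88.7 CPM per kb in Control (SD, n = 3, as in all values that follow), 52.7 ± 12 in HFD and 153 ± 75.6 in HFD+Mino. In Control the next were Timp3 with 24.1 ± 6.04 CPM per kb and Timp4 with 23.3 ± 9.84, whose ranges overlapped. The 3 inhibitors stood above every proteinase, of which Mmp17 was the highest with 5.85 ± 3.01 CPM per kb in Control, followed by Mmp24 with 4.64 ± 1.34 and Mmp14 with 3.75 ± 1.13, again with overlapping ranges. Mmp16 with 1.60 ± 0.104 CPM per kb, Mmp2 with 1.45 ± 0.447 and Mmp15 with 1.16 ± 0.331 overlapped as well. Timp1 was last in each group, with 0.336 ± 0.323 CPM per kb in Control.

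The order changed in HFD. Timp2 and Timp3 overlapped there, since the range of Timp2 (38.8 to 60.2 CPM per kb) reached into that of Timp3 (32.9 to 46.5). Mmp17 stood at 10.0 ± 0.862 CPM per kb, apart from Mmp14 at 3.63 ± 0.0429. Mmp24, the fifth gene in Control, was the ninth in HFD with 1.29 ± 0.386 CPM per kb, a range that overlapped that of Mmp2. In HFD+Mino Timp2 was apart from the rest again, Timp4 (23.1 ± 4.56 CPM per kb) and Timp3 (21.9 ± 6.47) overlapped, and each of the 6 proteinases overlapped its neighbour in the order.

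Timp2 stood at 593, 1006 and 1279 CPM in Control replicates 1 to 3, at 151, 230 and 235 CPM in HFD, and at 465, 389 and 933 CPM in HFD+Mino. All 3 HFD libraries were below the other 6, and the HFD+Mino libraries overlapped the Control range only through replicate 3. The gene was lower in HFD than in Control by a log2 difference of −2.23 ± 0.387 (SE, FDR 0.00799). From HFD to HFD+Mino the log2 difference was 1.54 ± 0.379 (FDR 0.0166), which passed the looser threshold only. HFD+Mino and Control differed by −0.69 ± 0.372 (FDR 0.303).

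The Timp2 call between HFD and Control held without Control replicate 1 (log2 difference −2.48, FDR 0.00476), without HFD+Mino replicate 2 (FDR 0.00723) and without HFD+Mino replicate 3 (FDR 0.00158). It was lost, with the same direction, without Control replicate 2 (FDR 0.0377), Control replicate 3 (0.0181), HFD replicates 1, 2 or 3 (0.0563, 0.0399 and 0.0401) and HFD+Mino replicate 1 (0.0160). With every library kept, 1.74% of all genes were called in this comparison. The shares were 0.335%, 0.406% and 0.408% without HFD replicates 1, 2 and 3. They were 0.509% and 1.70% without Control replicates 2 and 3, and 1.35% without HFD+Mino replicate 1. In the 6 libraries with PVN marker sums between 932 and 3726 CPM, a fit added after seeing the data, the log2 difference was −2.49 (FDR 9.58e-05) between HFD and Control and 2.15 (FDR 0.000831) between HFD+Mino and HFD. HFD+Mino is a single library in that fit and was assumed to vary like the other groups. Timp2 was also called in the second comparison by DESeq2 (FDR 0.000583) and after the trend of each library on GC content was removed (FDR 0.00985). Its looser call there was lost without HFD replicates 1, 2 or 3 (FDR 0.0701, 0.0529 and 0.0628), and without HFD+Mino replicate 3 the log2 difference was 1.06 (FDR 0.0241).

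Timp3, which differs from the other inhibitors in binding to the matrix and also blocks several ADAM proteinases, was measured at 144, 205 and 241 CPM in Control, 268, 379 and 379 CPM in HFD, and 179, 126 and 231 CPM in HFD+Mino. The HFD libraries were above the other 6, and Control and HFD+Mino overlapped. Its log2 difference was 0.80 ± 0.283 between HFD and Control (FDR 0.136) and −0.94 ± 0.283 between HFD+Mino and HFD (FDR 0.0328). HFD+Mino against Control gave −0.14 ± 0.281 (FDR 0.795). With the length trend removed the difference between HFD+Mino and HFD was −0.42 (FDR 0.245), and with the GC trend removed it was −0.84 (FDR 0.0516). With single libraries left out its FDR there reached 0.116, and in the libraries with like PVN markers the difference was −0.60 (FDR 0.159). Timp3 thus lay on the opposite side of Control from Timp2 in the HFD libraries, although only the value of Timp2 passed the test there.

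Timp4 ran from 201 CPM in Control replicate 1 through 124 to 87.6 CPM in replicates 2 and 3. It was 83.8, 74.2 and 87.2 CPM in HFD and 160, 142 and 107 CPM in HFD+Mino. The HFD libraries were lowest, but Control replicate 3 was within 1 CPM of HFD replicate 3. The log2 difference was −0.75 ± 0.294 between HFD and Control (FDR 0.176) and 0.73 ± 0.294 between HFD+Mino and HFD (FDR 0.0830). Without Control replicate 1, the library with few PVN transcripts, the first of these was −0.38 (FDR 0.636).

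Timp1, the inhibitor induced in reactive astrocytes in many kinds of brain injury, had very few reads. There were 23, 0 and 11 counts in the Control libraries, 8, 0 and 4 in HFD, and 3, 5 and 18 in HFD+Mino. The groups overlapped, and its log2 differences had standard errors of 1.40, 1.41 and 1.33, so that a difference of several fold was not detectable at this depth. No FDR was below 0.714 in any of the pairwise comparisons.

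Mmp14, also called MT1-MMP, was measured at 15.9, 21.7 and 29.4 CPM in Control, 21.7, 21.8 and 21.3 CPM in HFD, and 8.46, 3.16 and 13.5 CPM in HFD+Mino. The HFD libraries lay within the Control range and close to each other (SD 0.256 CPM, against 6.72 in Control and 5.16 in HFD+Mino). HFD+Mino libraries were below all others. The log2 difference was −0.05 ± 0.423 between HFD and Control (FDR 0.963), −1.37 ± 0.433 between HFD+Mino and HFD (FDR 0.0384) and −1.41 ± 0.433 between HFD+Mino and Control (FDR 0.136). The second of these was −1.0 with the length trend removed (FDR 0.0918) and −0.72 in the libraries with like PVN markers (FDR 0.134), and its FDR reached 0.116 with single libraries left out. Mmp14 was the member that passed the unadjusted threshold in the last comparison.

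Mmp15, a second transmembrane proteinase, was at 5.17, 5.31 and 8.33 CPM in Control, 12, 14.4 and 13.9 CPM in HFD, and 8.11, 2.49 and 5.93 CPM in HFD+Mino. Every HFD library was above the other 6. The log2 difference was 1.10 ± 0.401 between HFD and Control (FDR 0.148) and −1.28 ± 0.404 between HFD+Mino and HFD (FDR 0.0375). HFD+Mino and Control differed by −0.18 ± 0.399 (FDR 0.807). With the length trend removed HFD+Mino and HFD differed by −0.91 (FDR 0.121), and with single libraries left out the FDR of that difference reached 0.109.

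Mmp16 was at 12.8, 14.3 and 14.4 CPM in Control, 22.4, 15.5 and 24.0 CPM in HFD, and 7.29, 9.58 and 11.6 CPM in HFD+Mino. The 3 groups did not overlap, with HFD highest and HFD+Mino lowest. The log2 difference was 0.58 ± 0.266 between HFD and Control (FDR 0.249) and −1.12 ± 0.269 between HFD+Mino and HFD (FDR 0.0155), the lowest FDR of a member in that comparison. HFD+Mino and Control differed by −0.54 ± 0.267 (FDR 0.263). Mmp16 has the longest exons of the 10 genes, and with the trend of each library on exon length removed its log2 difference between HFD+Mino and HFD was −0.58 (FDR 0.110). With single libraries left out the FDR of that difference reached 0.0756.

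Mmp17, the lipid-anchored member, was at 21.5, 34.0 and 60.6 CPM in Control, 64.9, 72.9 and 61.8 CPM in HFD, and 10.9, 13.7 and 42.6 CPM in HFD+Mino. Control replicate 3 came within 2 CPM of the lowest HFD library, and HFD+Mino replicate 3 was inside the Control range. The log2 difference was 0.78 ± 0.492 between HFD and Control (FDR 0.400) and −1.57 ± 0.501 between HFD+Mino and HFD (FDR 0.0394). Without HFD+Mino replicate 3 the second was −2.44 (FDR 0.00153), in the 6 libraries with like PVN markers it was −0.68 (FDR 0.236), and with the length trend removed −1.19 (FDR 0.0780).

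Mmp24, a transmembrane proteinase made mainly by neurons, was the only proteinase with its HFD libraries below those of Control. It was at 18.5, 17.7 and 29.0 CPM in Control, 4.02, 7.48 and 6.65 CPM in HFD, and 2.94, 6.32 and 19.3 CPM in HFD+Mino. The HFD libraries were below all Control libraries, while HFD+Mino replicates 1 and 2 were at HFD levels and replicate 3 was in the Control range. The log2 difference was −1.84 ± 0.570 between HFD and Control (FDR 0.0907), 0.65 ± 0.558 between HFD+Mino and HFD (FDR 0.401) and −1.18 ± 0.558 between HFD+Mino and Control (FDR 0.248). Without HFD+Mino replicate 3, Mmp24 was lower in HFD+Mino than in Control by a log2 difference of −2.23 (FDR 0.00819). In that fit 6.28% of all genes were called between HFD+Mino and Control, against 0% with every library kept. The difference of Mmp24 between HFD+Mino and HFD turned there to −0.39 (FDR 0.478). In the 6 libraries with like PVN markers the difference between HFD and Control was −1.95 (FDR 0.00369).

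Mmp2, the secreted gelatinase that Mmp14 activates, was at 3.23, 5.22 and 6.18 CPM in Control, 4.97, 5.63 and 5.68 CPM in HFD, and 3.56, 3.45 and 4.04 CPM in HFD+Mino. HFD lay inside the Control range, and HFD+Mino was below HFD without overlap. None of its log2 differences passed a threshold, with 0.15 ± 0.327 between HFD and Control (FDR 0.830) and −0.56 ± 0.329 between HFD+Mino and HFD (FDR 0.225).

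**Figure D2:**
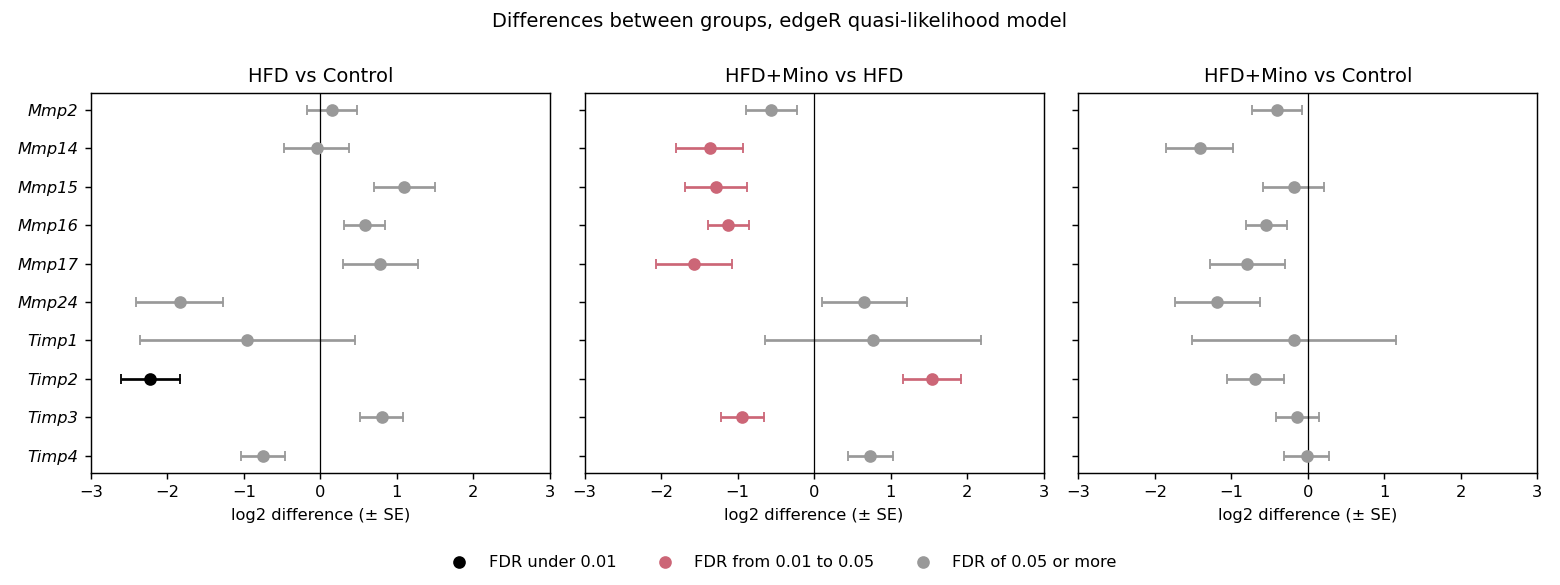
Log2 differences ± SE (horizontal axes) of the 10 genes between HFD and Control, HFD+Mino and HFD, and HFD+Mino and Control, from the edgeR model of all 9 libraries, coloured by FDR. Timp2 between HFD and Control (−2.23) is the only value with an FDR under 0.01, and 6 values between HFD+Mino and HFD have an FDR from 0.01 to 0.05.

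The study's own question was a 3-way one, which genes set HFD apart from both other groups. A gene was called when the test over the 3 groups had an FDR under 0.01, HFD was the highest or lowest of them, and its log2 level was 1.5-fold or more away from the average of the 3 groups. Of the 10 members 0 met this rule by edgeR's quasi-likelihood test, and 2.13% of all genes did. The paper names edgeR but not which of its tests was used. Its own list of genes was not compared with these calls. An unadjusted p under 0.05 was found for 8 members (39% of all genes), and DESeq2 and the likelihood ratio test each called 1, Timp2, against 13.6% and 12.9% of all genes. Timp2 came closest, with HFD at a log2 distance of −1.25 (FDR 0.0139), and at an FDR under 0.05 it was the only member called (13% of all genes). Mmp16 followed with 0.57 (FDR 0.0348), Timp3 with 0.58 (FDR 0.0537), Mmp15 with 0.79 (FDR 0.0585), Mmp14 with 0.44 (FDR 0.0619) and Mmp24 with −0.83 (FDR 0.0696). In 6 members all 3 HFD libraries lay beyond the other 6, a separation seen in 23% of all genes. Mmp15, Mmp16, Mmp17 and Timp3 were on the higher side (13.4% of all genes) and Timp2 and Timp4 on the lower side (9.62%).

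In pairs of groups, 7 members did not overlap between HFD and Control (35.7% of all genes). With HFD higher these were Mmp15, Mmp16, Mmp17 and Timp3 (19.7% of all genes), and with HFD lower Mmp24, Timp2 and Timp4 (16%). In HFD+Mino against HFD 8 members did not overlap (46.7% of all genes), with Timp2 and Timp4 higher (23.3%) and Mmp2, Mmp14, Mmp15, Mmp16, Mmp17 and Timp3 lower (23.5%). In HFD+Mino against Control the 2 members without overlap were Mmp14 and Mmp16, both lower in HFD+Mino, against 19.1% of all genes (10.1% lower).

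With no trend removed, the median log2 difference of the 6 proteinases was 0.37 between HFD and Control and −1.20 between HFD+Mino and HFD. Over all tested genes these medians were 0.00 and 0.01. All proteinases but Mmp2 (3371 bases) had longer exons than the median tested gene of known length (4334 bases). With the length trend removed, they ran from −1.19 (Mmp17) to 0.85 (Mmp24) between HFD+Mino and HFD. Mmp14, Mmp15, Mmp16 and Mmp17 were then less far below HFD, Mmp2 slightly further below and Mmp24 further above. Their median was not taken in that fit. For the 4 inhibitors, with no trend removed, the medians were −0.85 between HFD and Control and 0.75 between HFD+Mino and HFD. They fall between the values of Timp1 (−0.95 and 0.77), which had very few reads, and those of Timp4 (−0.75 and 0.73). Timp3 went the other way (0.80 and −0.94), so the inhibitors did not move as 1. HFD+Mino replicate 3 was the highest library of its group in 8 of the 10 members, and in 36.2% of all tested genes.

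Control and HFD+Mino libraries with the same number deviated together from their group means, while those of HFD, numbered as in the titles, did not. The count table numbers the HFD columns otherwise. A match of HFD with the other groups by number, and a block in all 3 groups, thus rest on the titles alone. The pairing of Control and HFD+Mino was read from these same counts and is not named in the labels. A block built on it takes out spread that was picked from the data, so the FDRs of such fits are given as a description. When the model carried a block for the replicate number of the Control and HFD+Mino mice, the members called between HFD+Mino and HFD were 7 in place of 0 (25.6% of all genes). They were Mmp14 (log2 difference −1.52, FDR 0.00538), Mmp15 (−1.40, 0.00832), Mmp16 (−1.14, 0.00416), Mmp17 (−1.83, 0.000298) and Timp3 (−0.96, 0.00657), which were lower, and Timp2 (1.45, 0.00146) and Timp4 (0.72, 0.00721), which were higher. With the length trend removed in the same fit 3 of the 7 calls were left (16.2% of all genes), and those of Mmp14 (FDR 0.0277), Mmp15 (0.0397), Mmp16 (0.0789) and Timp3 (0.159) were lost. A block in all 3 groups left 2 calls (7.89% of all genes), Mmp17 and Timp2. In the 3-way test of the first of these fits 3 members were called (13.2% of all genes), Mmp17 with HFD higher and Mmp24 and Timp2 with HFD lower. Timp2 remained the 1 member called between HFD and Control (log2 difference −2.17, FDR 0.000862), and 0 were called between HFD+Mino and Control.

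The number of members called moved with single libraries. Without HFD+Mino replicate 3, 4 were called between HFD+Mino and HFD (21.4% of all genes), all lower in HFD+Mino, namely Mmp14 (log2 difference −1.89, FDR 0.00576), Mmp16 (−1.29, 0.00566), Mmp17 and Timp3 (−1.17, 0.00982). In the 3-way test without it Mmp17 and Timp2 were called (13.4% of all genes), and without Control replicate 1 Timp2 alone was (1.75%). Between HFD and Control the only call, Timp2, was lost without Control replicate 2 or 3, any of the HFD replicates, or HFD+Mino replicate 1. In those fits 0.335% to 1.70% of all genes were called in that comparison, against 1.74% with every library kept.

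**Figure D3:**
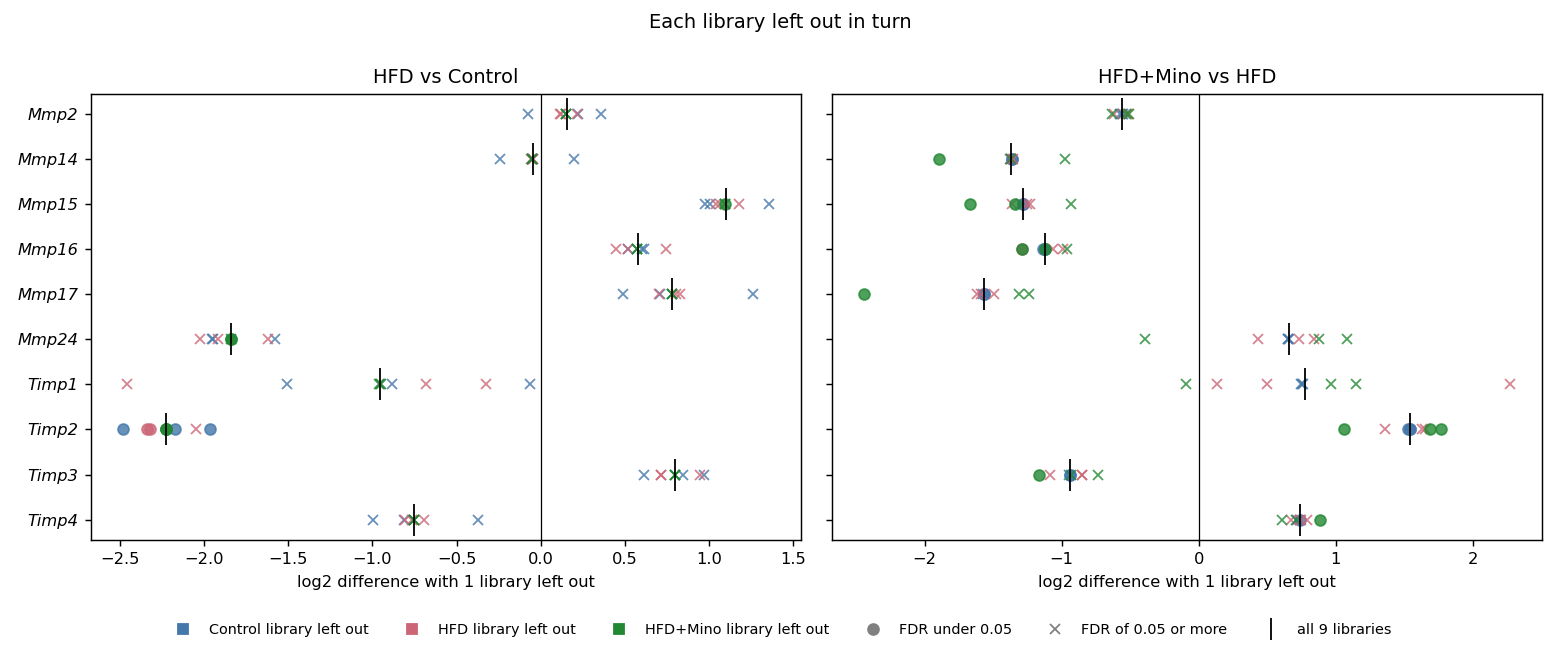
Log2 differences (horizontal axes) of the 10 genes between HFD and Control (left) and between HFD+Mino and HFD (right) with each of the 9 libraries left out in turn, coloured by the group of the library left out, with circles for an FDR under 0.05 and crosses otherwise. Timp2 stays between −2.48 and −1.96 on the left, and Mmp24 changes sign on the right when HFD+Mino replicate 3 is left out (−0.39).

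Summed over the genes, the levels of inhibitors and proteinases were set against each other in each library as a description with no test, since the sums rest largely on Timp2. The 4 inhibitors together stood at 205, 305 and 373 CPM per kb in Control, 86.4, 118 and 122 in HFD, and 168, 140 and 286 in HFD+Mino. The 6 proteinases together stood at 13.3, 16.8 and 25.3 CPM per kb in Control, 20.6, 22.4 and 21.4 in HFD, and 7.09, 6.54 and 16.5 in HFD+Mino. The ratio of the first sum to the second was 15.4, 18.2 and 14.8 in Control, 4.20, 5.27 and 5.69 in HFD, and 23.8, 21.4 and 17.4 in HFD+Mino. The ratio was lower in each HFD library than in the other 6, and it varied less within Control than the sums did, since Control replicate 3 had the highest sum of both.

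The make-up of the inhibitor pool differed as well. Timp2 made up 74.4% to 88% of the summed Timp CPM per kb in Control, 44.9% to 49.9% in HFD and 70.8% to 83.6% in HFD+Mino. Timp3 made up 7.93% to 8.62% in Control, 38.1% to 39.4% in HFD and 9.91% to 13% in HFD+Mino. The level of Timp2 was 56.9 to 70.8 times that of Mmp14 in Control, 10.6 to 16.8 times in HFD, and 84.1 to 189 times in HFD+Mino. Among the proteinases Mmp17 made up 24.5% to 36.2% of the sum in Control, 43.7% to 49.2% in HFD and 23.1% to 39.1% in HFD+Mino.

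**Figure D4:**
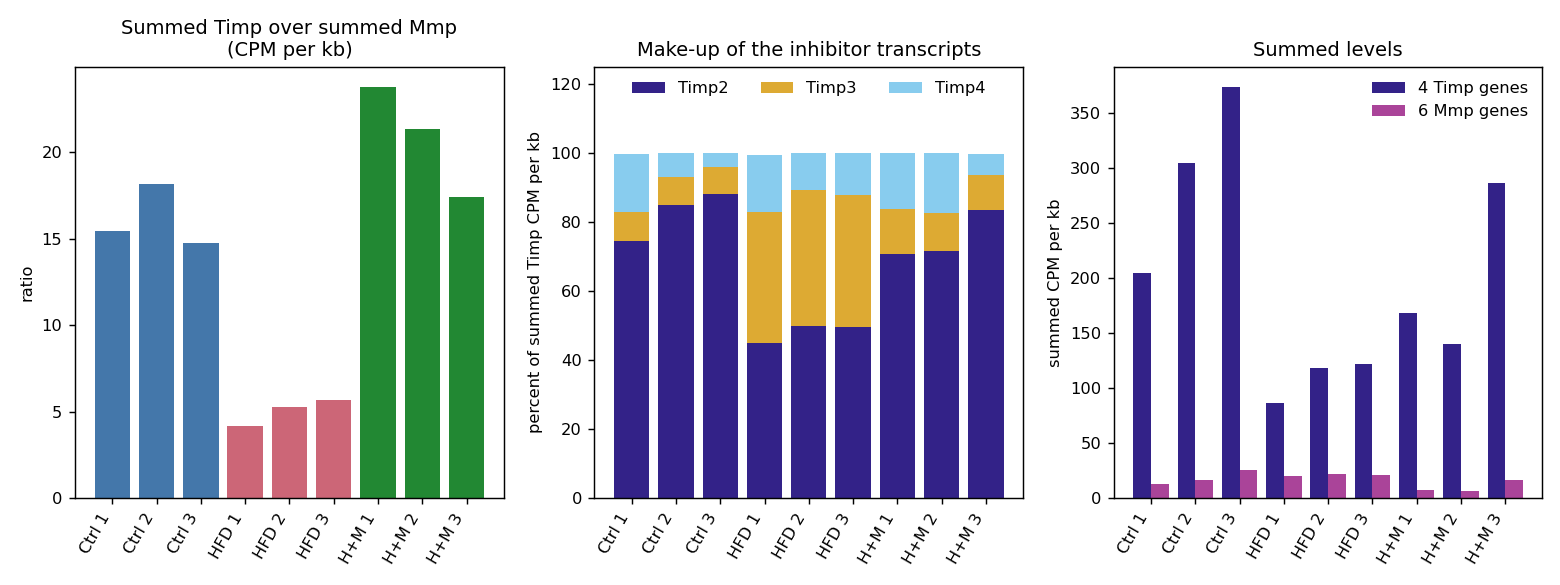
The ratio of summed Timp to summed Mmp levels (left), the percentage of the summed Timp level held by Timp2, Timp3 and Timp4 (middle), and the 2 sums in CPM per kb (right) in each of the 9 libraries, where Ctrl is Control and H+M is HFD+Mino. The ratio is 4.20 to 5.69 in the HFD libraries and 14.8 or more in the other 6.

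The remaining matrix metalloproteinase genes had few reads. Of 17 listed, 6 had enough counts to be tested, and 0 were called by edgeR at an FDR under 0.01 or under 0.05 in any comparison, or by DESeq2. A single one had an unadjusted p under 0.05, lower in HFD+Mino than in HFD. Mmp9, a gelatinase often studied with minocycline, was at 1.29, 1.95 and 1.77 CPM in Control, 1.00, 1.86 and 2.17 CPM in HFD, and 2.40, 2.64 and 1.78 CPM in HFD+Mino. Its groups overlapped, with a log2 difference of 0.02 ± 0.446 between HFD and Control (FDR 0.989) and 0.43 ± 0.447 between HFD+Mino and HFD (FDR 0.50). The 9 libraries together held 558 counts of Mmp9, 51 of Mmp3, 22 of Mmp12 and 7 of Mmp13.

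Of 16 tested genes that activate, inhibit or clear metalloproteinases, 1 was called. Lrp1, the endocytic receptor that takes up complexes of proteinases and inhibitors, was at 71.0, 75.6 and 178 CPM in Control, 228, 235 and 261 CPM in HFD, and 75.5, 55.9 and 85.4 CPM in HFD+Mino. It was lower in HFD+Mino than in HFD by a log2 difference of −1.74 ± 0.345 (FDR 0.00951), and HFD libraries were above all others. At an FDR under 0.05, 2 genes of this list were higher and 3 lower in HFD+Mino than in HFD. The proteoglycans Spock1 (−1.30, FDR 0.0111) and Spock2 (−1.90, FDR 0.0174) were lower. Plaur, the urokinase receptor (2.61, FDR 0.0186), and Bsg, the inducer of metalloproteinases also known as CD147 (0.84, FDR 0.0394), were higher. Plaur had few reads, with 13, 26 and 7 counts in HFD, and its HFD+Mino libraries were uneven (5.55, 2.64 and 1.39 CPM).

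Among the related ADAM proteinases, 11 of 12 listed genes were tested and Adam22 was called. This ADAM without protease activity, a receptor for Lgi1 at synapses, was at 73.5, 87.3 and 121 CPM in Control, 304, 320 and 320 CPM in HFD, and 79.0, 94.8 and 72.6 CPM in HFD+Mino. It was higher in HFD than in Control by a log2 difference of 1.74 ± 0.233 (FDR 0.00187) and lower in HFD+Mino than in HFD by 1.94 ± 0.234 (FDR 0.00132 by edgeR). Adam10, the main alpha-secretase, had a log2 difference of −2.01 ± 0.429 between HFD+Mino and HFD (FDR 0.0117). At an FDR under 0.05, 4 ADAM genes were lower in HFD+Mino than in HFD, the others being Adam22, Adam11 (−1.24, FDR 0.0159) and Adam9 (−1.33, FDR 0.0453). A single one was higher, Adam33 (2.07, FDR 0.0198). Adam33 had few reads, with 22, 34 and 19 counts in HFD, and stood at 6.20, 2.12 and 2.35 CPM in HFD+Mino. Of 18 tested ADAMTS genes, 0 were called by edgeR in any comparison at either FDR, with 3 at an unadjusted p under 0.05 between HFD+Mino and HFD and 1 called there by DESeq2. Their median log2 difference between HFD+Mino and HFD was −0.68, against 0.01 over all genes.

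Matrix proteins that these enzymes cut gave 1 call in each of 2 lists. Of 16 basement membrane genes, Lamb2, the laminin beta-2 chain, was at 8.30, 12.8 and 23.3 CPM in Control, 48.3, 42.2 and 45.4 CPM in HFD, and 10.5, 5.65 and 12.2 CPM in HFD+Mino. It was lower in HFD+Mino than in HFD by a log2 difference of −2.26 ± 0.394 (FDR 0.00649) and had HFD at a distance of 1.29 in the 3-way test (FDR 0.00969). Of 9 genes of the neural matrix, Ncan, the chondroitin sulfate proteoglycan neurocan, was at 34.6, 30.6 and 32.7 CPM in Control, 89.0, 79.2 and 70.1 CPM in HFD, and 22.6, 23.3 and 40 CPM in HFD+Mino. Its log2 difference was −1.47 ± 0.255 between HFD+Mino and HFD (FDR 0.00636) and its 3-way distance 0.92 (FDR 0.00803). In both genes HFD was the highest group, on the same side as Mmp15, Mmp16, Mmp17 and Timp3.

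Marker genes of several cell types were read beside the members. The summed level of 5 oligodendrocyte precursor genes was 82.5 to 107 CPM in Control, 140 to 144 in HFD and 54.4 to 88.9 in HFD+Mino, with HFD highest as in Mmp15, Mmp16 and Mmp17. Within that list Cspg4 (log2 difference 1.62, FDR 0.00449) was higher and C1ql1 (−4.67, FDR 0.000602) lower in HFD than in Control, so the list did not move as 1. Of 10 astrocyte genes 1, Sox9, was called, higher in HFD than in Control (1.46, FDR 0.00470) and lower in HFD+Mino than in HFD (−1.81, FDR 0.00184). At an FDR under 0.05, 4 astrocyte genes were lower in HFD+Mino than in HFD, as Timp3 and 4 proteinases were, namely Sox9, the water channel Aqp4 (−1.28, FDR 0.0118), Aldh1l1 (−1.19, FDR 0.0174) and the gap junction gene Gja1 (−0.94, FDR 0.0283). DESeq2 also called 4, and the summed astrocyte level overlapped between groups (4774 to 7183, 5147 to 6019 and 4740 to 5543 CPM). The summed level of 7 mural genes was 133 to 240 CPM in Control, 72.3 to 102 in HFD and 112 to 286 in HFD+Mino, with HFD lowest as in Timp2 and Timp4. Of these Pdgfrb alone was called, lower in HFD+Mino than in HFD (−1.57, FDR 0.00949), against the direction of the sum. At an FDR under 0.05, 2 mural genes were higher in that comparison, Vtn (1.76, FDR 0.0112) and Rgs5 (1.56, FDR 0.0232), and 1, Pdgfrb, was lower. DESeq2 also called 2 higher and 1 lower.

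Of 10 microglial genes 0 were called by edgeR's quasi-likelihood test at an FDR under 0.01. In HFD+Mino against HFD, 5 were higher at an FDR under 0.05, 8 had an unadjusted p under 0.05 (6 higher and 2 lower), and DESeq2 called 4. Their summed level was 335 to 561 CPM in Control, 418 to 448 in HFD and 528 to 663 in HFD+Mino. By the same test 0 genes were called in the lists for oligodendrocytes (9 tested), endothelial cells (8), fibroblasts and meninges (8), choroid plexus (6), ependyma (5), neurons (8), PVN neurons (6) and blood (3). In HFD+Mino against HFD the genes of these lists with an unadjusted p under 0.05 numbered 0, 3, 5, 2, 1, 3, 0 and 2 in that order, and those called by DESeq2 0, 3, 4, 2, 1, 2, 0 and 1. The oligodendrocyte genes were on the low side of Control. Of the 9, 4 were lower in HFD than in Control at an unadjusted p under 0.05 (median log2 difference −1.51, 1 called by DESeq2), as Timp2 was, and 7 were lower in HFD+Mino than in Control (median −1.90). Their summed level was 30414, 6122 and 3885 CPM in Control, 2756, 7085 and 4845 CPM in HFD, and 2549, 2396 and 6121 CPM in HFD+Mino, so that the groups overlapped and Control replicate 1 stood far above the rest. The Timp2 call between HFD and Control held without that library and was lost without several others, as given above. Its relation to the oligodendrocyte genes was not tested. The summed levels were 245 to 889 CPM for endothelial cells, 25.5 to 65.9 for fibroblasts and meninges, 13 to 40.6 for choroid plexus, 19.1 to 695 for ependyma, 4088 to 8181 for neurons and 16.8 to 139 for blood over the 9 libraries. The part of these cell types in the values of the 10 members was not tested.

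The members whose 3-way FDR was lowest, Timp2 and Mmp16, were each set beside the genes with the most similar pattern over the 9 libraries (Pearson r of log2 CPM, given as a description). For Timp2 these were Syn2, a synapsin of synaptic vesicles and the gene within which Timp4 lies (r = 0.987), Selenon, a selenoprotein of the endoplasmic reticulum (r = 0.987), and Agfg1 (r = 0.983). Syn2 averaged 451 CPM in Control mice, 124 CPM with HFD and 356 CPM with HFD+Mino. For Mmp16 they were Hlcs, the ligase that attaches biotin to carboxylases (r = 0.970), Slc35a3, a nucleotide sugar transporter of the Golgi (r = 0.970), and Topors (r = 0.968), which averaged 34.8 CPM in Control mice, 56.5 CPM with HFD and 18.3 CPM with HFD+Mino. All 9 libraries share their scaling in these correlations, and the groups' means account for part of each r.

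The members also shared features of sequence that the choice of genes did not use. In 8 of the 10 the GC-richest 100 bases of the transcript held more GC than the median of all tested genes (72%), up to 86% in Timp2 and 91% in Mmp24, the 2 genes with the largest log2 differences between HFD and Control. Mmp14 (85%), Mmp17 (84%) and Mmp15 (81%) came next without such a difference in that comparison. The GC content of the whole transcript, a different measure, was 53.7% in Timp2 and 58.1% in Mmp24, against a median of 49.9%. With the trend of each library on that measure removed, the difference of Timp2 between HFD and Control was −2.24 (FDR 0.00394) and that of Mmp24 −1.82 (FDR 0.0603). A trend on the GC-richest stretch was not fitted.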

How the data were processed

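RNA from PVN punches of 9 mice was sequenced, 1 library per mouse. Per the paper's methods and the submitters' processing notes, the authors aligned the reads to mm10 (GRCm38) with HISAT2 and assigned them to genes with featureCounts. They deposited the counts per gene without normalization for 27179 genes listed by Entrez identifier. Versions, strand setting and the treatment of reads with several positions are not given in the sources used here. Groups and replicate numbers came from the sample titles, and 0 sample columns were left unused. The HFD columns carry other numbers in the count table than in the titles.

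The tests used edgeR 4.0.16 (R 4.3.3). After the filterByExpr filter and TMM scaling, all 9 libraries entered 1 quasi-likelihood fit with a coefficient for each group. P-values were adjusted by Benjamini-Hochberg over all 17344 genes. CPM is counts per 1000000 of the TMM-scaled library size, and CPM per kb is CPM over exon length. Exon length and GC content came from GENCODE release M21 for 21573 genes, and positions from RefSeq GRCm38.p6 for 25275 genes. Log2 CPM used a prior count of 2. Total counts per library ran from 17728590 to 42326213. The reads carry no molecular identifiers, so precision was taken from the spread between mice. Counting noise alone was exceeded in every replicate pair (chi-square over its degrees of freedom 21.0 to 316). The code was tested on simulated counts.

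Alternatives were DESeq2 1.42.0, the likelihood ratio test, RLE factors, other filters and thresholds, trends on length or GC content removed, the replicate number as a block, fits of 2 groups, and each library left out. Control and HFD+Mino libraries of the same number had correlated deviations from their group means (0.135, 0.163 and 0.292), a pairing seen in the counts and not named in the labels. The same correlations with HFD, numbered as in the titles, were −0.006 or lower. A fit of the 6 libraries with summed PVN markers between 500 and 5000 CPM was added after seeing the data. The members and gene lists were chosen with earlier results of these data known. The text names all 10 members, Mmp9, up to 4 called genes of each further list and comparison, and the 3 genes closest in pattern to the 2 members with the lowest 3-way FDR. Genes with an FDR between 0.01 and 0.05, the low-count Mmp genes and the PVN markers were named after their values were seen.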

Additional observations from a re-analysis of the deposited data

How the results depend on the processing

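Of 505 values recomputed with all libraries of the fit or with the 6 libraries of like PVN markers, 448 kept their direction and side of the threshold, 41 passed it only in the alternative and 16 changed sign. Of 360 values with 1 library left out, 333 kept both, 6 lost the threshold, 8 gained it and 13 changed sign. The counts of called members were, in the 3-way test (0 as reported), 1 with DESeq2, the likelihood ratio test, no filter, the replicate block in all 3 groups, the length or GC trend removed, or an FDR under 0.05, 3 with the replicate block in Control and HFD+Mino alone, 4 with that block and the length trend removed, and 2 in the libraries of like PVN markers. Between HFD and Control (1 as reported, 1.74%) there were 2 with the block and length trend (5.19%) or with only the groups compared (3.67%). Between HFD+Mino and HFD (0 as reported, 4.15%) there were 6 with DESeq2 (23.0%) or an FDR under 0.05 (27.4%). The likelihood ratio test (19.1%) and the replicate block in all 3 groups (7.89%) each gave 2. The replicate block in Control and HFD+Mino alone gave 7 (25.6%), and that block with the length trend 3 (16.2%). A single member was called with no filter (7.61%) or the GC trend removed (9.07%). With each library left out in turn the counts ran from 0 to 2, 0 to 1, 0 to 4, and 0 to 1 between HFD+Mino and Control. The upper ends other than that for HFD against Control were reached without HFD+Mino replicate 3. In that fit 13.4% of all genes were called in the 3-way test, 21.4% between HFD+Mino and HFD, and 6.28% between HFD+Mino and Control. Between HFD and Control the 1 call was kept without Control replicate 1 (1.01% of all genes), HFD+Mino replicate 2 (2.27%) or HFD+Mino replicate 3 (3.08%). Log2 differences that changed sign between HFD and Control were those of Mmp2 (−0.073 in the like libraries, −0.075 to 0.36 with a library left out) and Mmp14 (0.0065 with the replicate block in all 3 groups, −0.24 to 0.20 with a library left out). Between HFD+Mino and HFD they were Mmp24 (−0.39 to 1.08 with a library left out) and Timp1 (−0.33 with block and length trend, −0.024 with the length trend, −0.094 to 2.27). Between HFD+Mino and Control they were Mmp15 (0.074 with the length trend, −0.57 to 0.16), Timp1 (0.74 and 0.31 with the replicate block in all and in 2 groups, 1.51 in the like libraries, −1.05 to 0.69), Timp3 (0.074 with block and length trend, 0.094 with the length trend, 0.0096 in the like libraries, −0.37 to 0.061) and Timp4 (0.028 and 0.048 with the blocks, 0.28 with block and length trend, 0.21 with the length trend, −0.26 to 0.36). In the 3-way test Timp1 turned to 0.040 with block and length trend. The cause was not tested. All called genes numbered 369 in the 3-way test and 302 and 719 in the first 2 comparisons, and 0 between HFD+Mino and Control. They numbered 2366, 1198, 3992 and 276 with DESeq2, 2234, 966, 3314 and 106 with the likelihood ratio test, 1299, 481, 1905 and 1 with no filter, 665, 514, 1573 and 0 with the GC trend removed, 2283, 1078, 4441 and 551 with the replicate block in Control and HFD+Mino alone, and 1468, 901, 2808 and 7 with that block and the length trend removed. The replicate block in all 3 groups gave 1369 between HFD+Mino and HFD. There 344 genes were higher and 375 lower as reported, and 330 and 121 with the length trend removed. Timp1 had too few reads for a mean count of 50 and was not tested there. With 3 mice per group an FDR near 0.01 depended on single libraries, and Timp1 had at most 23 counts in a library.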
